A study of Homo sapiens with 18 samples.

Results

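Promoters with the repressive mark H3K27me3 at a locus that overlaps no H3K4me3 were examined in MOLM-13. This is an established line of human myeloid leukemia cells (AML) in which KMT2A is rearranged. All results come from this 1 line. Overlapping H3K27me3 intervals were merged into 13899 loci. The 2379 loci described here were narrower than 15 kb, reached into the window 2 kb either side of a transcription start site (TSS) of a protein-coding gene, and overlapped no H3K4me3 interval. They made up 17.1% of all loci. The rule itself reads no level of H3K27me3 and no response to treatment, although it was chosen with earlier results of these data known. Each locus was measured on its widest interval and named after the gene whose TSS lay nearest to its center.

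Histone marks had been mapped by Cut&Tag, in which an antibody directs a transposase to cut and tag the DNA around a modification. The treated cells received 100 nM of PR-957 (ONX-0914), an inhibitor of the immunoproteasome subunit PSMB8, and the controls received the diluent DMSO, with a treatment time of 72 h in the sample labels. A figure legend of the study gives a shorter time, so the exposure time is not settled. H3K27me3, H3K4me1, H3K27ac and H3K4me3 each had 2 libraries per treatment, 16 in all. The libraries of a mark were counted on 1 shared list of intervals, and the counts were not normalized. Nothing in the labels says that the libraries came from separate cultures, so p-values measure the spread between these libraries. The 4 H3K27me3 libraries held 10032503 to 12047958 counts, and the median raw count of the 2379 promoters was 32 and 39 in DMSO and 38 and 46 in PR-957. The cell identity was read from H3K4me3, which lay at a TSS of 9 of 10 blood and leukemia genes (all but PTPRC) and of 3 of 12 genes of other cells, COL1A1 and EPCAM among them.

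H3K27me3 is deposited by Polycomb repressive complex 2 and is found at genes that are kept silent, above all regulators of other tissues. Polycomb is known to settle on CpG-rich DNA that lacks activators. Many such promoters carry H3K4me3 as well and are then called bivalent, while promoters with H3K27me3 alone lack the mark that usually accompanies an open start site.

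The promoter windows below show the range of base composition among members with a high level or a small p. Each is the stretch of 250 bases upstream of a RefSeq start (GRCh38.p14, minus strand in all 5, written 5′ to 3′ in gene direction), lies inside its H3K27me3 locus, and has every CpG in capitals.
PDLIM3 (29 CpG, chr4:185535508-185535757): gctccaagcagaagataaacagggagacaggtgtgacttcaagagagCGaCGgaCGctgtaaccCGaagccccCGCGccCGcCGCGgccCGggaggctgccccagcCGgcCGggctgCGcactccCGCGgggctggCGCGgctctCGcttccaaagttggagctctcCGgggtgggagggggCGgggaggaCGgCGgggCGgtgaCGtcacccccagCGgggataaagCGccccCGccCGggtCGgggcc
NKX2-8 (15 CpG, chr14:36582615-36582864): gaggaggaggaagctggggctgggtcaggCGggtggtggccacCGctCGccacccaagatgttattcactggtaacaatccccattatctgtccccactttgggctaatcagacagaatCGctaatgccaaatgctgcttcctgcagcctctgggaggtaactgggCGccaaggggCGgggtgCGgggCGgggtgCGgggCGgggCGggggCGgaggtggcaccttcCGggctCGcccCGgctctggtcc
BSX (13 CpG, chr11:122981835-122982084): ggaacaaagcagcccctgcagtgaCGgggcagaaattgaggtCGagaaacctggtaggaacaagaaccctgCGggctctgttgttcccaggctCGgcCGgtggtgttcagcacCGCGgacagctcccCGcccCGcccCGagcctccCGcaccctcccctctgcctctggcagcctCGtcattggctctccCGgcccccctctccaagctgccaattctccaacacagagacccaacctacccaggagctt
HOXA2 (8 CpG, chr7:27102684-27102933): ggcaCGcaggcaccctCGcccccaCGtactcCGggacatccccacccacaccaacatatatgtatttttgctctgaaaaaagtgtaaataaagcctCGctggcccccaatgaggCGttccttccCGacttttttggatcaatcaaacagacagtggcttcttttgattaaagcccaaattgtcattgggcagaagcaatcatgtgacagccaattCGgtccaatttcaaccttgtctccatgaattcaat
ANKRD65 (6 CpG, chr1:1421277-1421526): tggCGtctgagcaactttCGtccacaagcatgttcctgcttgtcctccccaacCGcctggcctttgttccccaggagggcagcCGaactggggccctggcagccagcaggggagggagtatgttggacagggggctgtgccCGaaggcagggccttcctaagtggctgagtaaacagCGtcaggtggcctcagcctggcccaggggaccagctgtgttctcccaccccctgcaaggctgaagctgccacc
PDLIM3 encodes an actin-associated protein of the muscle Z-disc, and its window was the densest in CpG of the 5. NKX2-8, BSX and HOXA2 encode homeobox transcription factors. ANKRD65, an ankyrin repeat gene, had the fewest CpG of the 5 and was still among the promoters with the highest H3K27me3 level. Over the 1088 RefSeq windows of 300 bases (250 before to 50 after the start) that lay wholly inside a member, the median was 22 CpG (quartiles 10 and 32). It was 29 in 1279 windows inside narrow H3K27me3 promoters with H3K4me3 and 21 in all 21613 windows of protein-coding genes. The letters TATAAA on the gene strand occurred in 6.71% of the windows inside members, 3.99% of those inside promoters with H3K4me3 and 6.50% of all windows, and in none of the 5 windows printed. The letters GGGCGG on either strand, which hold 1 CpG each, occurred in 60.2%, against 56.8% of all windows and 78.1% of windows inside promoters with H3K4me3. By these 3 counts the windows inside members lay near the windows of all genes, and the windows inside promoters with both marks had more CpG and more GGGCGG. The windows show letters only and identify no bound factor.

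The 2379 loci were named after 1776 genes, of which 1388 had 1 locus and 388 had more. ADCY5, an adenylate cyclase gene with many annotated starts, had 10, EML1 had 9 and PCSK6 had 8. The TSS lay inside the locus at 1689 promoters and beside it at the other 690. The main (Ensembl canonical) TSS of the gene was within the window at 1385 promoters (58.2%), and the other 994 were reached through an alternative TSS alone. H3K4me3 was present at another TSS of the same gene for 616 promoters (25.9%), so that these genes had a start with H3K27me3 and a different start with H3K4me3. For 1708 promoters (71.8%) no TSS of the gene carried H3K4me3. At the members in neither group, H3K4me3 lay within 2 kb of a TSS in the member's own window. The rule excludes overlap with the locus only, and 146 members had an H3K4me3 interval within 2 kb of the locus. The other 2233 had none within that distance. The loci had a median width of 3.44 kb (range 0.461 to 14.98 kb), compared with 5.45 kb for the 1584 narrow promoters with H3K4me3 and 2.02 kb for the 9149 narrow distal loci. Beside the width limit, the widest members lay at SEMA5B (14.98 kb), KLK2 (14.87 kb) and ANO1 (14.72 kb), with 1.88, 1.69 and 1.33 CPM per kb in DMSO. The narrowest promoters without H3K4me3 above the limit lay at ANKRD60 (15.004 kb), FAM166C (15.02 kb) and ADRA1D (15.06 kb), with 2.19, 1.79 and 2.12 CPM per kb.

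CPM is a count scaled by the library's total and its TMM factor (trimmed mean of M values), and division by the width of the widest interval makes levels comparable between loci. In DMSO the median level of H3K27me3 was 1.14 CPM per kb (quartiles 0.735 and 1.74). It was 1.79 CPM per kb at promoters with H3K4me3, 0.781 at narrow distal loci and 5.26 at the 787 loci of 15 kb or more. The level followed the base composition around the TSS. In the 1 kb around the TSS the median ratio of observed to expected CpG was 0.467, against 0.791 at promoters with H3K4me3 and 0.525 over all 146210 annotated TSS positions of protein-coding genes. The distribution had a CpG-poor and a CpG-rich mode, as that of all TSS did, while promoters with H3K4me3 lay mostly in the CpG-rich mode. A window with a ratio over 0.6 and a GC content over 50% was counted as CpG-rich. That held for 919 of the members (38.6%), for 1297 promoters with H3K4me3 (81.9%) and for 44.7% of all TSS. The median H3K27me3 level was 0.849 CPM per kb among the 313 members with a ratio under 0.2 and 1.64 among the 365 with a ratio of 0.8 or more. Canonical promoters had a median ratio of 0.667 and a level of 1.34 CPM per kb. Promoters reached through an alternative TSS alone had a ratio of 0.309 and 0.913 CPM per kb. CpG-rich promoters were also wider, with a median of 4.91 kb against 2.79 kb. These are descriptions over loci, which share libraries and are not replicates.

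**Figure D1:**
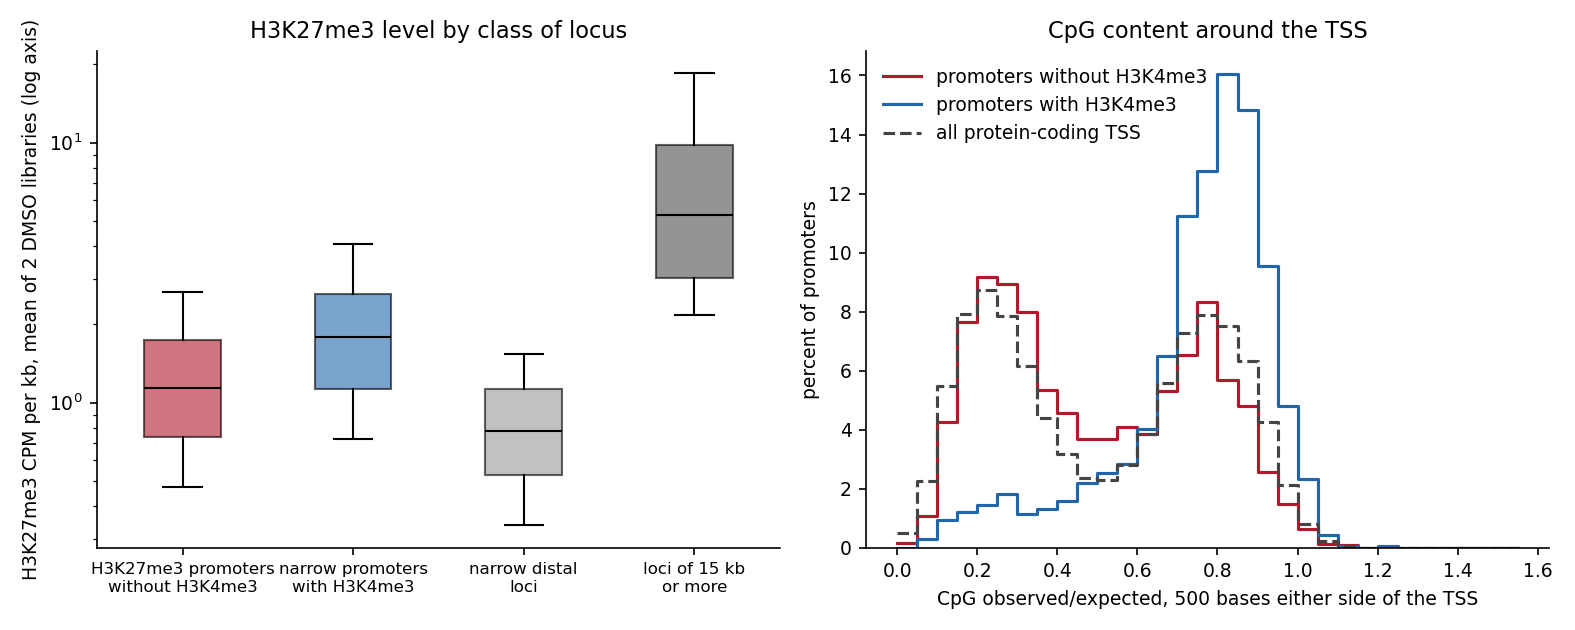
Left, H3K27me3 level in CPM per kb (mean of the 2 DMSO libraries, log axis) for 4 classes of locus, with the median as a line, quartiles as the box and the 10th and 90th percentiles as whiskers. Right, the distribution of the ratio of observed to expected CpG around the TSS in steps of 0.05. Promoters without H3K4me3 had a median level of 1.14 CPM per kb, between narrow distal loci (0.781) and promoters with H3K4me3 (1.79), and they spread over both a CpG-poor and a CpG-rich mode.

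Marks of enhancers and of active chromatin were sparse. An H3K4me1 interval overlapped 187 members (7.86%) and an H3K27ac interval 260 (10.9%), 44 had both and 1976 (83.1%) had neither. At promoters with H3K4me3 these shares were 43.6% for H3K4me1 and 44.8% for H3K27ac, and at narrow distal loci they were 4.75% and 10.6%. Members whose TSS window was CpG-rich overlapped H3K27ac in 4.79% of cases, and those that were not CpG-rich in 14.8%. Where H3K27ac was present its level was low. The H3K27ac intervals that represent members had a median of 1.08 CPM per kb in DMSO, compared with 2.97 over all H3K27ac intervals, and covered a median of 40.3% of the H3K27me3 locus. The H3K4me1 intervals had a median of 1.08 CPM per kb against 1.66 over all H3K4me1 intervals, and covered 37.1% of the locus. Whether both marks lie on the same molecules cannot be read from libraries made from many cells.

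The highest level belonged to the promoter of IGF2BP1, which encodes an mRNA-binding protein of fetal tissues and many tumors. It reached 27.3 ± 0.129 CPM per kb (SD, n = 2) in DMSO at its canonical TSS on chromosome 17 (chr17:48993601-49001291, hg38). A further member just downstream, at an alternative TSS of the same gene (chr17:49002753-49013947), had 8.27 ± 0.119. MADCAM1, an adhesion receptor ligand of mucosal vessels, followed with 9.90 ± 0.537. EYA1, a developmental coactivator, had 9.41 ± 0.337 and BSX, a homeobox gene of the hypothalamus, had 9.01 ± 0.195. MADCAM1 and EYA1, and EYA1 and BSX, were closer to each other than the larger of their SDs or near it. ANKRD65 had 8.77 ± 0.328, CHD5, a chromatin remodeler of neurons, 8.55 ± 0.769, and NKX2-8 8.16 ± 0.153. Neighbours in this order from ANKRD65 to NKX2-8 also lay within the larger SD of each other or near it. ANKRD65, with CPM of 85.5 and 81.1 in DMSO and 86.96 and 74.8 in PR-957, and CHD5, with 70.5 and 80.01 against 78.9 and 70.4, had overlapping groups. MADCAM1 had 36.9 and 34.2 against 43.2 and 40.1, without overlap (edgeR adjusted p = 0.231). MADCAM1, EYA1 and CHD5 overlapped an H3K4me1 interval, and CHD5 an H3K27ac interval as well.

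PR-957 was compared with DMSO on all listed intervals by edgeR's quasi-likelihood test at an adjusted p of 0.05. Of the members, 2223 passed the filter on low counts and 156 did not. In PR-957, 30 members (1.35% of those tested) were lower and 22 (0.990%) were higher, at 49 genes, and in each of the 52 the libraries of the groups did not overlap. The background was 5.09% lower and 0.824% higher over all 31806 tested intervals. Counted as 1 widest interval per locus, as the members are, it was 3.2% lower and 0.761% higher over 12355 loci. The share lower was thus below this background, which includes the loci of 15 kb or more, and the share higher was near it. Those wide loci, which are not members, had 251 of 787 lower (31.9%) and 32 higher (4.07%). Promoters with H3K4me3 had 53 of 1546 lower (3.43%) and 15 higher (0.970%). Narrow distal loci had 61 of 7799 lower (0.782%) and 25 higher (0.321%), both below the shares of the members. These shares were not tested against each other. Without adjustment, 245 members (11.02%) had p under 0.05. Of the tested members, 84.6% lay within 1.5-fold of DMSO. Their median log2 fold change was 0.09 (quartiles -0.15 and 0.35), beside 0.10 over all tested loci and 0.02 over all tested intervals. In simulated H3K27me3 counts over 31806 intervals the test recovered 26% of 200 intervals changed 1.5-fold and 53.5% of those changed 2-fold, so smaller changes can pass undetected.

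The direction moved with the level and with the scaling. Tested members were divided into 4 tiers of equal size by mean CPM. In the lowest tier (0.678 to 1.74 CPM) edgeR called 0 lower and 1 higher, with 0 lower and 20 higher at an unadjusted p under 0.05, and no adjusted p from DESeq2 for any of the 556. The median log2 fold change of this tier was 0.31. This tier lies at the filter on low counts, and some members passed it only through the group where they are high. Its 1 call, INSYN2A, did so, as did VWF, with raw counts of 5 and 5 in DMSO and 20 and 15 in PR-957. The direction in this tier therefore cannot be read as a response. In the highest tier (10.4 to 189 CPM) 27 were lower and 10 higher, with a median of -0.02. This split did not hold when only intervals with a mean count of at least 50 were kept and scaled anew. Then 25 members were lower and 47 higher, with a median of 0.08. The median log2 fold change was 0.17 in the members with a CpG ratio under 0.2 and -0.03 in those with 0.8 or more. Scaling by library size alone in place of TMM factors moved the median log2 fold change over all intervals from 0.02 to 0.18, and gave 10 members lower and 86 higher. Cyclic loess offsets gave 21 lower and 27 higher. The TMM factors were 0.943 and 0.948 in DMSO and 1.04 and 1.07 in PR-957, so the groups differed in them. When a single library was left out, 15 to 19 members were lower and 5 to 9 higher. The lower and higher counts were 18 and 8 with the first DMSO library left out, 15 and 9 with the second, 18 and 7 with the first PR-957 library left out, and 19 and 5 with the second.

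**Figure D2:**
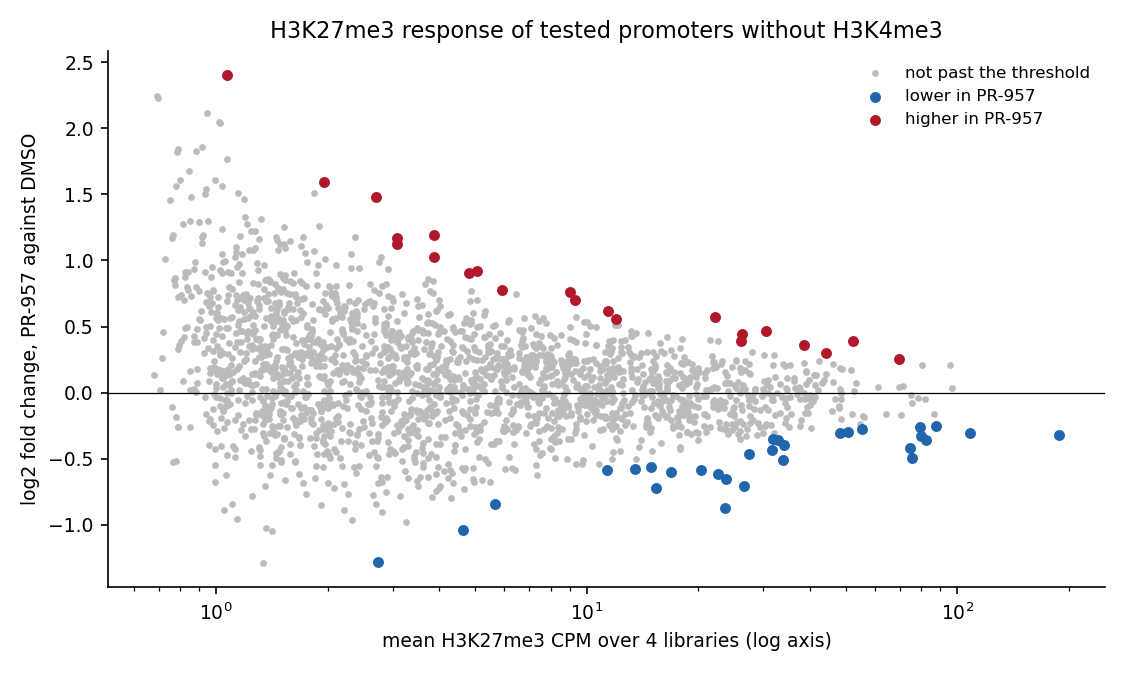
Log2 fold change of H3K27me3 in PR-957 against DMSO (y axis) and mean CPM over the 4 libraries (x axis, log scale) for the 2223 tested promoters, 1 point each. The 30 that were lower (blue) lie mostly at high CPM, the 22 that were higher (red) are spread over the range, and the cloud of the others widens toward low CPM.

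**Figure D3:**
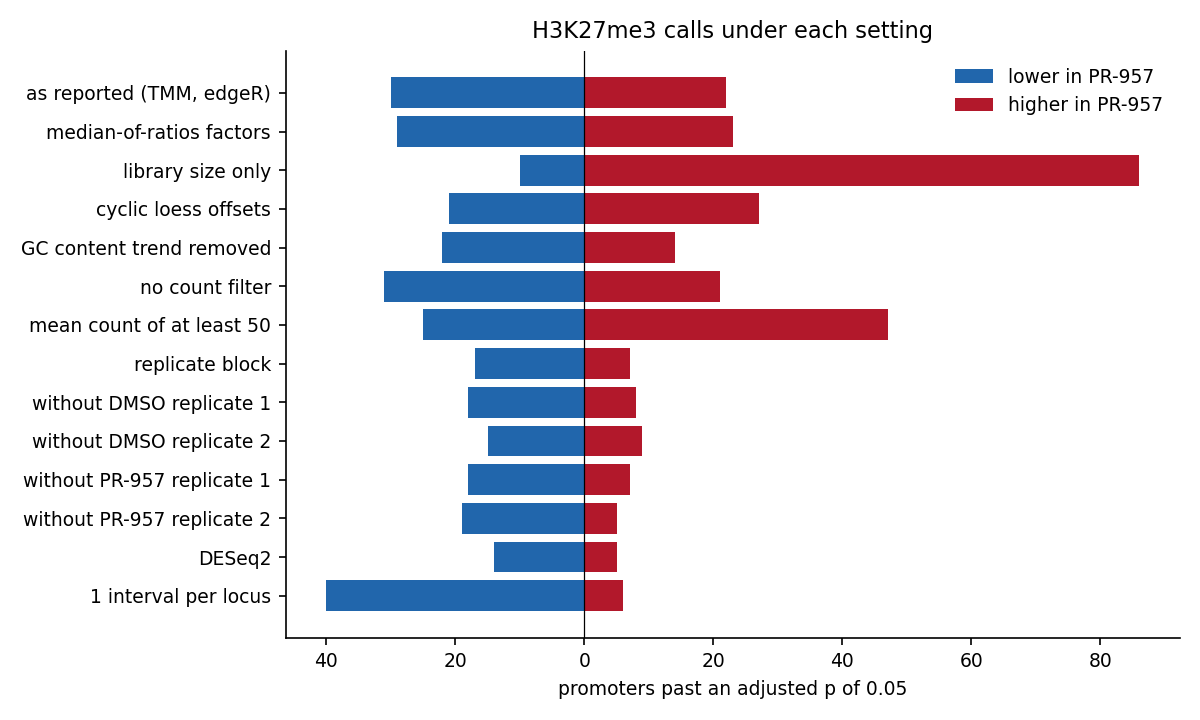
Number of promoters without H3K4me3 past an adjusted p of 0.05 with lower (blue, left) and higher (red, right) H3K27me3 in PR-957, for the reported setting and 13 alternatives. Bars start at 0. Library size alone gave 10 lower and 86 higher, and 1 interval per locus gave 40 lower and 6 higher.

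The 12 members with the smallest p, all with both PR-957 libraries on one side of both DMSO libraries, were lower in PR-957 and belong to 10 genes. At LMTK2, which encodes a membrane-anchored kinase, the CPM was 30.5 and 30.7 in DMSO and 18.4 and 15.2 in PR-957. The log2 fold change was -0.87 (SE 0.131, edgeR adjusted p = 4.28e-08), and the locus lies inside the gene (chr7:98127308-98141230), with 0.919% of it exonic. LMTK2 has H3K4me3 at another TSS, and an H3K4me1 interval overlaps the locus. At the canonical IGF2BP1 promoter the CPM was 209 and 210.4 in DMSO against 172 and 164 in PR-957, which gave a log2 fold change of -0.32 (SE 0.0568, edgeR adjusted p = 3.88e-06). The alternative IGF2BP1 promoter downstream had 89.4 and 87.6 against 64.7 and 61.3, a log2 fold change of -0.49 (SE 0.0766, edgeR adjusted p = 1.16e-07). Both promoters of this gene thus had separate groups, with the larger proportional difference at the weaker one. LIN28B encodes an RNA-binding protein that, like IGF2BP1, is typical of fetal cells and blocks the maturation of let-7 microRNAs. Its locus (chr6:104951577-104959725) lies in the gene, with 4.197% exonic. The CPM of 20.3 and 18.2 in DMSO and 10.6 and 12.6 in PR-957 gave a log2 fold change of -0.72 (SE 0.16, edgeR adjusted p = 0.00048).

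Among the genes of transcriptional regulators, NKX2-8 (chr14:36575309-36586547, 16.4% exonic) had a CPM of 84.1 and 86.4 in DMSO and 64.3 and 63.4 in PR-957. The log2 fold change was -0.42 (edgeR adjusted p = 1.11e-05). TFAP2B (chr6:50816899-50828630, 9.35% exonic), an AP-2 factor of neural crest and kidney, had 94.1 and 91.5 against 69.3 and 75.03, a log2 fold change of -0.36 (edgeR adjusted p = 0.000127). HOXA2 (chr7:27100467-27107304) patterns the hindbrain, and 32.5% of its locus is exonic. Its CPM was 29.2 and 25.5 against 20.0 and 15.8, a log2 fold change of -0.61 (edgeR adjusted p = 0.000381). At BSX (chr11:122973189-122986619) it was 122 and 118 against 96.0 and 98.4, and at EYA1 (chr8:71549862-71561687) 87.0 and 91.5 against 65.9 and 75.9. Their log2 fold changes were -0.30 and -0.33 (edgeR adjusted p = 0.000491 and 0.000834). No pair of groups overlapped at these 5 genes. HOXA2 had an adjusted p of 0.0622 without DMSO replicate 1 and 0.107 with PR-957 replicate 2 left out. BSX had 0.0612 without DMSO replicate 1, and EYA1 had 0.100 without DMSO replicate 2 and 0.101 with PR-957 replicate 1 left out. Under library size alone TFAP2B (adjusted p = 0.0850), BSX (0.198) and EYA1 (0.186) did not pass.

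The other 3 of the 12 lay at GPAM and PDLIM3. GPAM encodes the mitochondrial acyltransferase that starts glycerolipid synthesis and, like LMTK2 and EYA1, has H3K4me3 at another of its TSS. The locus (chr10:112208267-112220356) is 2.38% exonic. Its CPM was 35.3 and 30.8 in DMSO and 19.2 and 21.3 in PR-957, which gave a log2 fold change of -0.70 (SE 0.123, edgeR adjusted p = 3.31e-06). PDLIM3 has a member at its canonical promoter (chr4:185534256-185546411), whose CpG-dense window is printed above, and another inside the gene (chr4:185523043-185533466). The first had 41.0 and 38.5 against 29.1 and 26.9, a log2 fold change of -0.51 (edgeR adjusted p = 0.000277). The member inside the gene had 30.0 and 28.0 against 19.3 and 17.7, a log2 fold change of -0.65 (edgeR adjusted p = 6.27e-05). In 7 of the 12 the canonical TSS was in the window, in 3 another TSS of the gene had H3K4me3, and 0 of the 12 overlapped H3K27ac. The 12 passed with median-of-ratios factors, cyclic loess offsets, the GC trend removed and 1 interval per locus. DESeq2 gave 11 of the 12 an adjusted p, and all 11 passed. Of the 12, 9 passed under library size alone and 10 or 11 with 1 library left out.

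**Figure D4:**
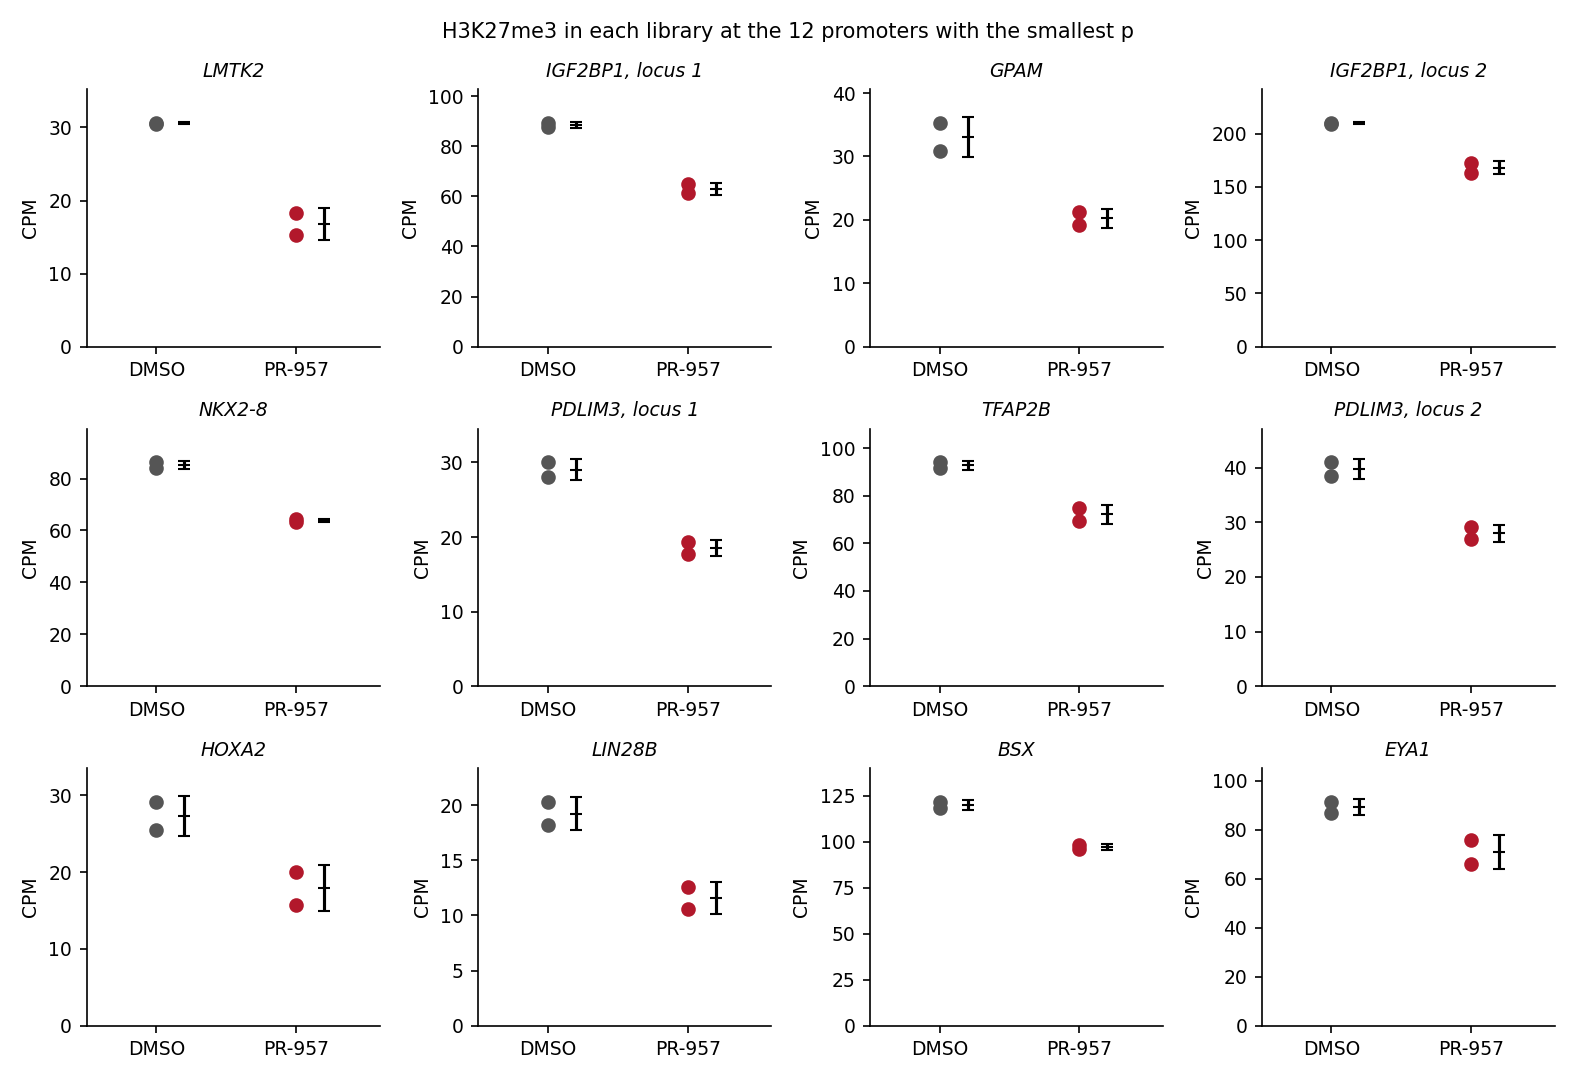
H3K27me3 CPM in each library (points) with the mean and SD of the 2 libraries beside them, for the 12 promoters with the smallest p. Each panel has its own axis from 0, and in every panel both PR-957 libraries (red) lie below both DMSO libraries (gray). For IGF2BP1, locus 2 is the canonical promoter, and for PDLIM3 as well.

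The 22 members that were higher had log2 fold changes of 0.25 to 2.40 and a median CPM of 6.89 in DMSO, compared with 35.9 for the 30 that were lower (log2 fold changes of -1.28 to -0.25). Their median GC content was 56.7% against 47.1%, and 10 of the 22 were canonical promoters against 20 of the 30. Of the 22, 7 lay on chromosome 19, which held 177 members. There edgeR called 0 lower, with 1 lower and 32 higher at an unadjusted p under 0.05, and DESeq2, which gave 27 of the 167 tested an adjusted p, called 0 lower and 2 higher. The share over all H3K27me3 loci of this chromosome is not given here, so these calls cannot be read as particular to the members. With the GC trend removed, 14 members over all chromosomes were higher in place of 22. The members named next were chosen after their values were seen. PALM, which encodes the membrane protein paralemmin, had adjoining members at an alternative TSS (chr19:716133-730595) and the canonical one (chr19:707053-715402). The first had a CPM of 49.1 and 41.5 in DMSO and 61.6 and 57.1 in PR-957, which gave a log2 fold change of 0.39 (SE 0.0905, edgeR adjusted p = 0.000875). The second had 39.0 and 39.9 against 50.4 and 47.1, a log2 fold change of 0.30 (edgeR adjusted p = 0.0383). COL16A1, a collagen gene, had 17.0 and 18.7 against 27.8 and 25.5, a log2 fold change of 0.57 (edgeR adjusted p = 0.00107). SEPTIN3, a septin of neurons, had 27.8 and 23.5 against 33.9 and 36.7, a log2 fold change of 0.47 (edgeR adjusted p = 0.00235). The groups did not overlap at any of these loci. The first PALM locus had an adjusted p of 0.236 without DMSO replicate 2 and 0.0601 with PR-957 replicate 1 left out, and the second lost its call without any 1 of the 4 libraries (adjusted p 0.0636 to 0.331). COL16A1 had 0.0540 without DMSO replicate 1 and 0.0503 with PR-957 replicate 1 left out. SEPTIN3 had 0.221 without DMSO replicate 2 and 0.0921 with PR-957 replicate 2 left out. Some of the 22 would not have passed the filter on low counts by their DMSO libraries alone. Among them, RBPJL had raw counts of 10 and 10 in DMSO and 36 and 33 in PR-957, and SHROOM4 had 5 and 36 against 44 and 59. The largest value, 2.40 at INSYN2A, rests on raw counts of 2 and 5 in DMSO and 19 and 24 in PR-957. This member passed the filter on low counts, with its minimum count of 10, only through the PR-957 libraries, where it is high. Its call was lost without any 1 library (log2 fold change 2.01 to 3.03) and with cyclic loess offsets (edgeR adjusted p = 0.235).

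The genes were next grouped by function. Of 20020 protein-coding genes, 1776 (8.87%) named a member and 1500 (7.49%) a narrow promoter with H3K4me3. Ion channel genes named members most often, with 67 of 271 genes (24.7%) and 40 (14.8%) with H3K4me3. Secreted growth factors and their antagonists followed with 36 of 168 (21.4%), adhesion and extracellular matrix genes with 69 of 344 (20.1%), solute carriers with 55 of 385 (14.3%) and developmental transcription factors with 51 of 360 (14.2%). The latter named nearly as many narrow promoters with H3K4me3, at 48 genes. Keratin and cornified envelope genes named 19 of 212 (8.96%) and 3 with H3K4me3, and 1 of their 23 members was CpG-rich. G protein-coupled receptor genes named 59 of 733 (8.05%), cytokines and their receptors 21 of 219 (9.59%), and zinc finger genes 17 of 570 (2.98%). These shares were not tested, since family members lie side by side in the genome and gene families with near-identical copies can share reads.

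In PR-957, 7 of the 56 tested members at developmental transcription factor genes were lower, among them HOXA2, NKX2-8, PAX8, SIX6, TFAP2B and TLX2, and 1 was higher (DMRTC2). That is 12.5% lower and 1.79% higher, beside 1.35% and 0.990% of all tested members and 3.2% and 0.761% of all tested loci. Calls gathered at high counts, and 4.86% of the members in the highest tier of mean CPM were lower. The members at these genes had a median CPM of 5.57 in DMSO, beside 3.43 over all members. The shares were not matched for level. Their median log2 fold change was -0.09, against 0.10 over all tested loci, and 0.08 under library size alone, where 2 were lower and 1 higher. SIX6, a homeobox gene of the eye, had a CPM of 88.4 and 101 in DMSO and 82.3 and 77.97 in PR-957, which gave a log2 fold change of -0.25 (edgeR adjusted p = 0.0192). TLX2, a homeobox gene of enteric neurons, had 85.7 and 87.2 against 73.8 and 70.8, a log2 fold change of -0.26 (edgeR adjusted p = 0.0159). SIX6 had an adjusted p of 0.582 without DMSO replicate 2 and 0.190 with PR-957 replicate 2 left out. TLX2 lost its call as well, with 0.115 and 0.206 when the first or second DMSO library was left out and 0.151 without PR-957 replicate 2. PAX8, a factor of thyroid and kidney, had 57.9 and 54.3 against 45.6 and 45.4, a log2 fold change of -0.30 (edgeR adjusted p = 0.0238), and lost its call without any 1 library (adjusted p 0.0755 to 0.274). DMRTC2, a DM domain gene, had 7.40 and 11.9 against 15.4 and 13.5, a log2 fold change of 0.56 (edgeR adjusted p = 0.0461), with 0.660 without DMSO replicate 1 and 0.390 and 0.0738 when the first or second PR-957 library was left out. The groups did not overlap at SIX6, TLX2, PAX8 and DMRTC2. DESeq2 gave 18 of the 56 an adjusted p and called 4 lower and 0 higher. Under library size alone the calls at SIX6 (adjusted p = 0.542), TLX2 (0.500) and PAX8 (0.424) were lost, and cyclic loess offsets gave 0.266, 0.211 and 0.136 at the same genes.

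Of 97 tested members at ion channel genes 1 was lower (KCNA1) and 2 higher (GRIN1 and KCNT1), or 1.03% and 2.06%, and their median was 0.19. GRIN1, the obligatory subunit of NMDA receptors, had 63.2 and 64.2 against 74.4 and 77.4, a log2 fold change of 0.25 (edgeR adjusted p = 0.0315), and the call was lost without any 1 library (adjusted p 0.0669 to 0.231). KCNA1, a potassium channel of axons, had 39.0 and 38.8 against 26.1 and 32.8, a log2 fold change of -0.40 (edgeR adjusted p = 0.00970), and KCNT1, a sodium-activated potassium channel, 6.56 and 7.58 against 10.8 and 12.2, a log2 fold change of 0.70 (edgeR adjusted p = 0.0179). With 1 library left out, KCNA1 had 0.0925 and 0.0993 without the first or second DMSO library and 0.412 without PR-957 replicate 1, and KCNT1 had 0.187 and 0.0559 without the first or second DMSO library and 0.240 without PR-957 replicate 2. GRIK3, a kainate receptor subunit, had 67.5 and 69.4 against 70.5 and 70.5 (adjusted p = 0.877).

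Calls in the other groups are read beside the 1.35% lower and 0.990% higher of all tested members. Solute carriers had 1 of 69 tested members lower (SLC1A2, a glutamate transporter) and 2 higher (SLC4A1 and SLC6A17), which is 1.45% and 2.90%. The CPM at SLC1A2 was 38.3 and 32.8 in DMSO and 31.5 and 24.4 in PR-957 (edgeR adjusted p = 0.0461, 0.514 without DMSO replicate 1 and 0.645 with PR-957 replicate 2 left out). SLC6A17, a vesicular amino acid transporter of neurons, had 9.10 and 8.90 against 12.2 and 15.3, a log2 fold change of 0.62 (edgeR adjusted p = 0.0215). Its adjusted p was 0.106 and 0.165 when the first or second DMSO library was left out and 0.390 without PR-957 replicate 2. Adhesion and matrix genes had COL12A1 lower and COL16A1 higher among 90, 1.11% each. COL12A1, a fibril-associated collagen, had 51.3 and 55.7 against 45.1 and 41.6 (edgeR adjusted p = 0.0226, 0.342 without DMSO replicate 2 and 0.266 with PR-957 replicate 2 left out). At an adjusted p of 0.05 in edgeR none of 62 members at G protein-coupled receptor genes, 43 at growth factor genes, 22 at cytokine genes, 20 at keratin genes or 18 at zinc finger genes passed. Of these 165 members, 15 had an unadjusted p under 0.05. DESeq2 gave 25 of them an adjusted p and called 0. GPR12, an orphan receptor of the brain, had 27.1 and 29.7 in DMSO and 22.9 and 22.9 in PR-957 (edgeR adjusted p = 0.137), and GLP1R, the receptor of glucagon-like peptide, 28.2 and 31.7 against 26.6 and 25.6 (edgeR adjusted p = 0.423), both without overlap. OPRD1, an opioid receptor gene, had 32.7 and 32.1 against 31.3 and 31.0 (edgeR adjusted p = 0.887). Among the growth factor genes with the highest CPM, NTF3, a neurotrophin, had 57.1 and 60.6 against 51.5 and 52.9 (adjusted p = 0.310) and FGF8 had 49.2 and 47.1 against 43.6 and 43.8 (adjusted p = 0.524). Under library size alone KCNA1 (adjusted p = 0.228), SLC1A2 (0.380) and COL12A1 (0.401) did not pass, and with the GC trend removed GRIN1 (0.129), KCNT1 (0.0548) and SLC4A1 (0.0599) did not. IL17REL, related to interleukin 17 receptors, had 93.7 and 97.8 against 92.1 and 104 (adjusted p = 0.896), with overlapping groups.

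Genes of blood lineages formed short lists, with 8 of 66 lymphoid genes (12.1%), 6 of 45 erythroid and megakaryocyte genes (13.3%) and 4 of 58 myeloid genes (6.90%) among the members, beside 8.87% of all genes. Their median levels were 0.819, 0.693 and 1.53 CPM per kb, beside 1.14 over all members. The 8 lymphoid members were CR2, PAX5, EBF1, LEF1, CD22, LCK, IL2RB and CD6. Their highest value was at CR2, a complement receptor of B cells, with a CPM of 8.57 and 8.99 in DMSO and 6.86 and 10.1 in PR-957 (adjusted p = 0.957). PAX5, the B cell factor, was reached at an alternative TSS and has H3K4me3 at another one, with 2.96 and 3.17 against 3.15 and 2.71 (adjusted p = 0.959). None of the 7 tested passed in edgeR, 0 had an unadjusted p under 0.05, and DESeq2 gave none of them an adjusted p. Erythroid and megakaryocyte genes had 8 members at ANK1, SLC4A1, EPB42, ITGA2B, TREML1 and VWF. SLC4A1, the anion exchanger of red cells, was higher at an alternative promoter, with 3.07 and 2.03 against 6.03 and 4.33, a log2 fold change of 1.03 (edgeR adjusted p = 0.0396). That call was lost with DMSO replicate 2 (0.364) or PR-957 replicate 1 (0.499) left out, and the canonical SLC4A1 promoter had 3.07 and 3.70 against 2.41 and 3.40 (adjusted p = 0.854). Myeloid genes had 5 members, at LTF (2 of them), S100A12, MRC1 and SIGLEC1, and none passed in edgeR, with 0 at an unadjusted p under 0.05 and no adjusted p from DESeq2. S100A12, a neutrophil calcium-binding protein, had 4.02 and 4.05 against 1.85 and 3.25 (adjusted p = 0.382). The KMT2A targets that the study names include the HOXA cluster as a whole, which was written out here as its single genes. Of the 21 genes of that list, HOXA2 and HOXA3 named a member, while 19 of the 21 had H3K4me3 at a TSS. The HOXA3 member, at an alternative TSS, had a CPM of 1.06 and 0.969 against 2.04 and 0.773 (adjusted p = 0.832).

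To compare the members with the classes most like them, the median log2 CPM of a class was taken in each library. Members minus promoters with H3K4me3 gave -1.28 and -1.29 in DMSO and -1.20 and -1.19 in PR-957. The difference of 0.09 exceeded the pooled SD of 0.0096, and the libraries of the groups did not overlap. Members minus narrow distal loci gave 1.10 and 1.19 against 1.00 and 0.876, a difference of -0.20 (pooled SD 0.0756), again without overlap. For both, p was 0.333 in a two-sided exact permutation test, and 0.333 after adjustment over the 2 comparisons. That is the smallest p that 2 against 2 libraries allow. With the mean in place of the median the differences were 0.14 and -0.10. The members took 6.89% and 6.95% of the counts on the widest intervals of all loci in DMSO and 7.59% and 7.77% in PR-957. The difference was 0.756 percentage points (pooled SD 0.0973, exact permutation p = 0.333), and the groups did not overlap. All loci include those of 15 kb or more, of which 31.9% were lower. A share can thus rise without a gain at the members, and this was not tested. The members covered 10.8 Mb, 16.0% of the bases in loci.

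H3K4me1 on the members was tested on the widest interval that overlaps each of the 187. Counts are taken over the whole interval, which can reach beyond the H3K27me3 locus, and the same holds for H3K27ac below. The interval at GABRD spans 7172 bases and covers 22.4% of its locus, and the interval at TJP3 spans 11024 bases. A change is thus not placed within the locus. In PR-957, 4 were lower and 2 higher (3.21% of 187), beside a background of 0.701% lower and 1.24% higher over 108158 intervals, and 35 had p under 0.05 without adjustment. Their median log2 fold change was -0.05. GABRD, a GABA receptor subunit gene, had 20.0 and 20.2 CPM in DMSO and 11.4 and 15.8 in PR-957. The log2 fold change was -0.54 (SE 0.122, edgeR adjusted p = 0.00417). TJP3, a tight junction gene, had 18.5 and 17.5 against 12.3 and 12.4 (log2 fold change -0.54, edgeR adjusted p = 0.00565). CKM, muscle creatine kinase, had 2.51 and 3.60 against 1.41 and 1.35 (log2 fold change -1.14, adjusted p = 0.0359). At the canonical PALM promoter, where H3K27me3 was higher, H3K4me1 was lower. It had 3.05 and 3.09 against 1.48 and 1.30 (log2 fold change -1.15, edgeR adjusted p = 0.031). CDH17, a cadherin of the intestine, had 10.1 and 10.4 against 14.0 and 14.5 (log2 fold change 0.48, edgeR adjusted p = 0.0285), and IGSF9B, named here after its value was seen, an adhesion molecule of inhibitory synapses, 3.08 and 2.55 against 4.49 and 5.13 (log2 fold change 0.77, edgeR adjusted p = 0.0456). The groups did not overlap at these 6. DESeq2 called 0 of them, and leaving out 1 library left 0 to 2 lower and 0 higher. Those leave-out counts are over all 187 members and not over the 6 named. At PALM, CKM, CDH17 and IGSF9B the call was lost whichever library was left out. With the GC trend removed 0 were lower and 1 was higher.

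For H3K27ac, 259 of the 260 members had a tested interval and 0 passed in edgeR, beside 0.173% lower and 0.0644% higher over 74510 intervals. At an unadjusted p under 0.05, 10 were higher and 3 lower. DESeq2 gave 2 of the 260 an adjusted p and called 0. The median log2 fold change was 0.19, beside 0.00 over all intervals, and 176 were above 0. The smallest p belonged to MYRF, a factor of myelin-forming cells, with 2.42 and 1.81 CPM in DMSO and 5.43 and 4.79 in PR-957 (log2 fold change 1.24, SE 0.34, edgeR adjusted p = 0.0835). LCNL1 had 2.35 and 1.11 against 3.52 and 4.22 (adjusted p = 0.324), ETV3L 1.29 and 2.42 against 5.03 and 2.96 (adjusted p = 0.348), PDZK1IP1 3.10 and 3.93 against 6.44 and 5.35 (adjusted p = 0.394) and B3GAT1 0.757 and 0.807 against 1.81 and 2.81 (adjusted p = 0.420). At these 5, which were picked by their p, both PR-957 libraries lay above both DMSO libraries, at levels of a few CPM. B3GAT1 passed the filter on low counts only through the PR-957 libraries, where it is high. Its direction therefore carries no weight.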

How the data were processed

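The authors aligned reads to hg38. Their processing notes name Trimmomatic 0.39, Bowtie2 2.2.5, Picard 2.27.1, SAMtools 1.7, SEACR 1.3 and deepTools 3.5.1. The deposited files hold whole-number counts, not normalized, on 1 interval list per mark. The counter and the treatment of duplicates and of reads that map to several places are not given in the sources used here. Listed intervals overlap. The 2 IgG samples were not analysed here. Coordinates are printed as listed.

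The members and the gene lists were chosen with earlier results of these data known. TSS came from GENCODE release 44. Intervals were kept by filterByExpr (minimum count 10), scaled by TMM and tested in edgeR 4.0.16 (quasi-likelihood fit, R 4.3.3, prior count 2 for log2 CPM), with Benjamini-Hochberg adjustment over all tested intervals of a mark and no block. Members were named by the 12 smallest p, the 8 highest levels, the 5 smallest p in H3K4me1 and in H3K27ac, the up to 4 highest of each functional list and up to 8 of each blood list. Alternatives were those below, with DESeq2 1.42.0. The fit was tested on simulated data. All 35116 RefSeq promoter windows equalled hg38. Intervals for shares of loci were not computed, and the precision of a count is limited by the depth given beside it. Some single-gene results are not reported here.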

Additional observations from a re-analysis of the deposited data

How the results depend on the processing

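The counts of H3K27me3 members that were lower and higher were 30 and 22. Library size alone gave 10 lower and 86 higher, and removal of the GC trend 22 lower and 14 higher. A mean count of at least 50 gave 25 lower and 47 higher, and 1 interval per locus 40 lower and 6 higher. DESeq2 gave 14 lower and 5 higher, of the 283 members to which it gave an adjusted p, all among the highest counts. With the replicate number as a block, 17 were lower and 7 higher. Whether the numbers pair the libraries is not known. Deviations of same-numbered libraries correlated at -0.01 for H3K27me3, 0.01 for H3K4me1 and -0.01 for H3K27ac. Noise in low counts can hide a pairing, so these values do not decide it. Leaving out 1 library gave 15 to 19 lower and 5 to 9 higher. A width limit of 10 kb gave 9 lower and one of 20 kb 46 lower, and 1 TSS per gene gave 19 lower and 10 higher. The cause was not tested. The median log2 fold change of 0.09 was 0.26 with library size alone, 0.0395 with cyclic loess offsets, 0.11 with no count filter, 0.0294 with 1 interval per locus, 0.12 with a limit of 10 kb, 0.12 with a window of 5 kb, 0.0595 with 1 TSS per gene and 0.0596 to 0.0935 when 1 library was left out. For H3K4me1, with 4 lower and 2 higher, removal of the GC trend gave 0 lower and 1 higher, DESeq2 0 and 0, cyclic loess offsets 1 higher, the block 1 higher, 1 interval per locus 0 higher, and leaving out 1 library 0 to 2 lower and 0 higher. H3K27ac gave 0 under every alternative run, of which DESeq2 gave 2 of the 260 members an adjusted p. The difference against promoters with H3K4me3 was 0.14, and against narrow distal loci -0.10, with the mean in place of the median. Low depth limits the result, as the median member had 32 to 46 counts in a library and calls gathered at the highest counts.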
